A study of Rattus norvegicus with 6 samples.

Results

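Mast cells are resident immune cells of the dermis that store histamine, heparin and proteases in granules and release them when IgE bound to their surface receptor meets its antigen. Their growth and survival depend on KIT, the receptor for stem cell factor. Skin mast cells of rodents are mainly of the connective tissue type, whose granules hold chymase, tryptases and carboxypeptidase A3. The genes described here are 8 such genes, taken by symbol from a table of 34225 loci in which each symbol occurred once: the receptor gene Kit, the histamine-forming enzyme gene Hdc, the granule protease genes Cpa3, Tpsab1, Tpsb2 and Cma1, and the IgE receptor subunit genes Ms4a2 and Fcer1a. All 8 were among the 16398 loci tested. Some are also expressed elsewhere: KIT by melanocytes, and histidine decarboxylase and the IgE receptor by basophils.

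RNA came from back skin of Sprague-Dawley rats, an outbred albino strain, in 3 groups of 2 libraries. The rats were untreated, or received gefitinib at 80 mg/kg or afatinib at 30 mg/kg by mouth once a day until a rash appeared. Gefitinib blocks the kinase of the epidermal growth factor receptor, EGFR, reversibly, and afatinib binds EGFR and its relatives covalently. The doses differed and the times may have differed too. The labels name no age, sex or vehicle and do not say whether a library is 1 rat or several, so p-values measure only the spread between these libraries. Library totals ran from 17206456 to 22086673 counts.

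Markers of other tissues were summed in each library. Keratinocyte markers, which define the labelled tissue, were at 849 to 1529 CPM (read counts relative to the library size after TMM scaling) summed over 9 genes in untreated skin and at 2580 to 4621 in rash skin, and 5 of the 9 passed as higher with gefitinib and 1 with afatinib in the test described below. Of 15 hair follicle genes 15 were higher with gefitinib and 8 with afatinib, with sums of 89.4 and 335 CPM in untreated skin, 5570 and 4618 with gefitinib and 1340 and 4437 with afatinib. Over all tested genes 12.3% passed as higher with gefitinib and 3.60% with afatinib. Skeletal muscle markers summed to 230100 to 276000 CPM in untreated skin, 36960 and 75050 with gefitinib, 164300 in afatinib replicate 1 and 36680 in afatinib replicate 2. Fibroblast and connective tissue markers summed to 10500 to 21780 CPM in untreated skin and 1313 to 9271 CPM in rash skin. Of the 13 muscle and 9 connective tissue genes 0 passed with either inhibitor (edgeR; 4 and 3 at an unadjusted p under 0.05 with gefitinib, 1 and 0 with afatinib). In bulk tissue, fewer cells of a type and less RNA per cell cannot be told apart.

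Kit and Hdc rose with both inhibitors, and the protease and IgE receptor genes did not pass the test with either. Of the 8 genes 2 were higher and 0 lower with gefitinib, against a background of 17.7% of all tested genes called in either direction 12.3% called higher and 5.45% called lower (edgeR's quasi-likelihood test, adjusted p under 0.05). With afatinib the same 2 were higher and 0 lower, against 3.98% in either direction and 3.60% higher. The median log2 fold change of the 8 genes was −0.18 with gefitinib and 0.78 with afatinib, beside 0.04 and 0.09 over all tested genes. Both comparisons use the same untreated libraries.

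**Figure D1:**
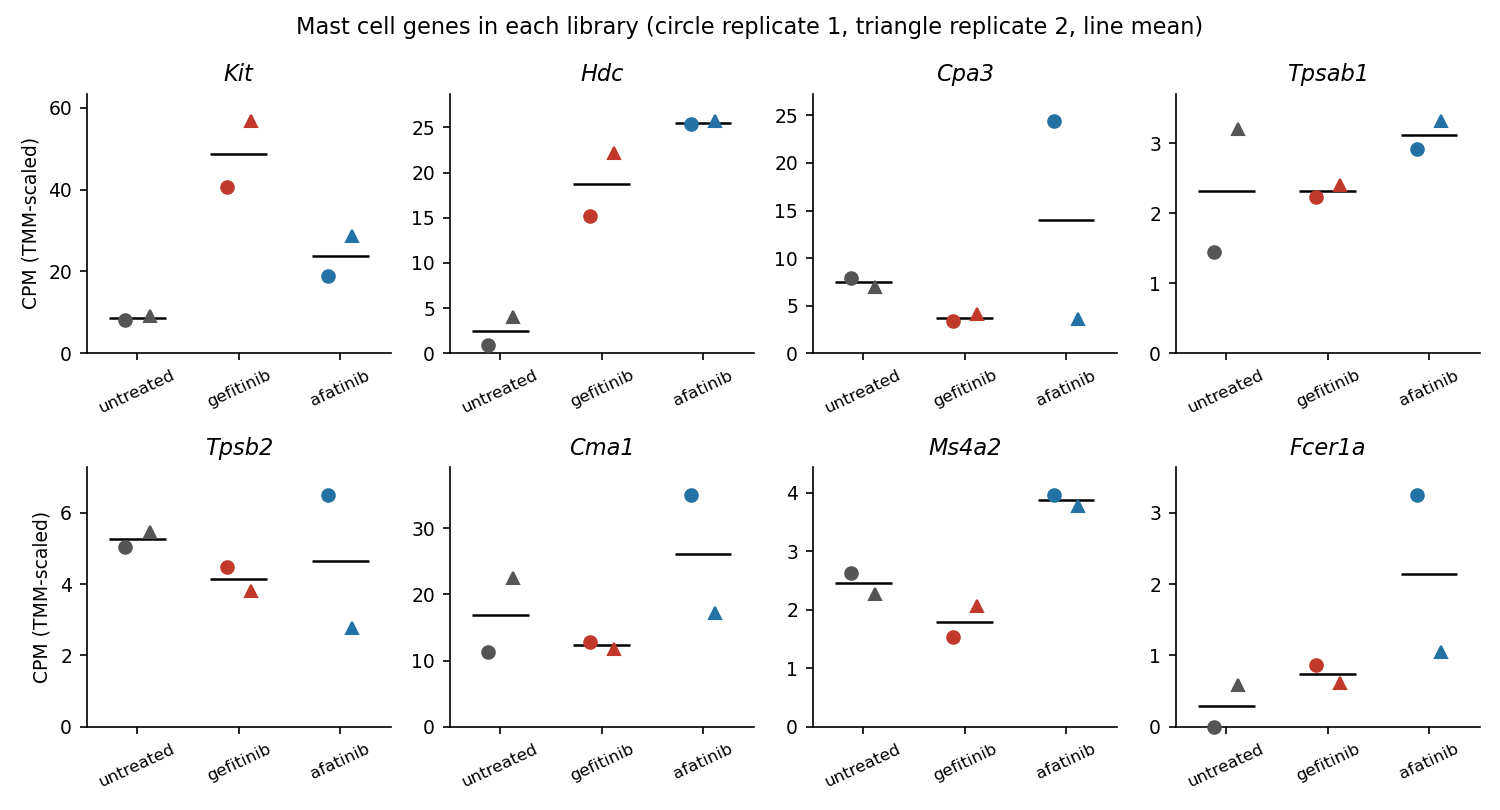
TMM-scaled CPM of the 8 mast cell genes, 1 point per library (circle, replicate 1; triangle, replicate 2), with the mean of each group as a line; each panel has its own linear axis from 0. Kit and Hdc were above both untreated libraries in all 4 rash libraries, whereas Cpa3 was at 24.4 CPM in afatinib replicate 1 and at 3.63 CPM in replicate 2.

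Kit encodes the receptor tyrosine kinase that binds stem cell factor (ENSRNOG00000002227, chromosome 14, 35072108 to 35149610, minus strand; positions here are those of the deposited table, for which no build is named). It stood at 8.02 and 9.08 CPM in the untreated libraries, 40.7 and 56.7 CPM with gefitinib, and 19.0 and 28.7 CPM with afatinib. The 3 groups did not overlap: both gefitinib libraries were the highest, both afatinib libraries came next and the untreated pair was lowest. With gefitinib Kit was 5.69-fold higher (95% interval 3.40 to 9.53), a log2 fold change of 2.51 ± 0.317 (SE, edgeR adjusted p = 0.0105). With afatinib it was 2.79-fold higher (1.69 to 4.61), a log2 fold change of 1.48 ± 0.309 (edgeR adjusted p = 0.0487). Kitlg, which encodes stem cell factor, did not pass: it had 71.1 and 57.4 CPM in untreated skin, 78.2 and 61.7 with gefitinib, and 63.3 and 118 with afatinib (edgeR adjusted p = 0.814 and 0.433).

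The afatinib call of Kit lay close to the threshold. It was lost with RLE scaling (adjusted p = 0.055), limma-voom (0.1) or the replicate number as a block (0.0504), and without either untreated library (0.258 and 0.246), either gefitinib library (0.0865 and 0.0921) or afatinib replicate 2 (0.159), while its log2 fold change stayed between 1.09 and 2.15. The gefitinib call of Kit was lost only without untreated replicate 1 (adjusted p = 0.0919) or replicate 2 (0.087), where 10 and 0 genes of the whole table passed.

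Hdc encodes histidine decarboxylase, which makes histamine from histidine (ENSRNOG00000010262, chromosome 3, 119057517 to 119075619). It had 13 and 69 counts, or 0.899 and 4.02 CPM, in the untreated libraries, a larger ratio within the pair than in either rash group. With gefitinib it stood at 15.2 and 22.2 CPM and with afatinib at 25.3 and 25.7 CPM, all 4 above both untreated values. The increase was 7.50-fold with gefitinib (95% interval 2.81 to 20.0; log2 fold change 2.91 ± 0.604, SE; edgeR adjusted p = 0.0229) and 10.2-fold with afatinib (3.78 to 27.7; 3.36 ± 0.613; edgeR adjusted p = 0.0369). Its size depended on the untreated pair: without untreated replicate 1 the log2 fold change was 2.22 with gefitinib and 2.66 with afatinib, and without untreated replicate 2 it was 4.37 and 4.82. None of these 4 values passed (adjusted p = 0.0919, 0.179, 0.0694 and 0.0761). The gefitinib call was also lost without gefitinib replicate 1 (0.0529) or 2 (0.1), and the afatinib call with limma-voom (0.0669) and without gefitinib replicate 1 (0.0705) or 2 (0.0737) or afatinib replicate 2 (0.089). For the mean of both inhibitors, where 11.0% of all tested genes were called higher and 4.93% lower, these 2 of the 8 genes were higher and 0 lower: Kit had a log2 fold change of 1.99 ± 0.288 (edgeR adjusted p = 0.0132) and Hdc of 3.13 ± 0.573 (0.0183).

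The granule protease genes of the connective tissue type did not pass as higher with either inhibitor. Cpa3, the gene of carboxypeptidase A3 (ENSRNOG00000011181, chromosome 2, 105016626 to 105047984), had 7.95 and 6.92 CPM in untreated skin and 3.37 and 4.11 CPM with gefitinib. In the afatinib pair it was at 24.4 and 3.63 CPM, so 1 library held the highest and the other nearly the lowest value of all 6. Its log2 fold change was −0.99 ± 0.764 with gefitinib (edgeR adjusted p = 0.372) and 0.90 ± 0.754 with afatinib (0.516). The spread of the afatinib pair entered both tests: without afatinib replicate 2 Cpa3 passed as lower with gefitinib (−1.06, edgeR adjusted p = 0.0333), without afatinib replicate 1 it reached −1.04 with afatinib (0.13), and in that case it passed as lower for the mean of both inhibitors.

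Cma1, the gene of mast cell chymase (ENSRNOG00000020563, chromosome 15, 34601037 to 34603819), had 11.3 and 22.5 CPM in untreated skin, 12.8 and 11.8 with gefitinib and 35.0 and 17.2 with afatinib. The gefitinib and afatinib ranges both overlapped the untreated one. Its log2 fold changes were −0.46 ± 0.443 (edgeR adjusted p = 0.472) and 0.62 ± 0.442 (0.445). The tryptase gene Tpsb2 (chromosome 10, 14722756 to 14724600) had 5.05 and 5.47 CPM in untreated skin, 4.47 and 3.81 with gefitinib and 6.50 and 2.78 with afatinib. The neighbouring tryptase gene Tpsab1 (chromosome 10, 14701253 to 14703668) had 1.45 and 3.20, 2.24 and 2.41, and 2.92 and 3.32 CPM in the same order. Neither tryptase passed with gefitinib (log2 fold changes −0.35 ± 0.483 and −0.01 ± 0.515) or with afatinib (−0.19 ± 0.484 and 0.42 ± 0.516). Tpsb2 and Tpsab1 are related genes, and the handling of reads matching both is not stated, so the split between them is uncertain. With gefitinib the 95% intervals were 0.146-fold to 1.74-fold for Cpa3, 0.354-fold to 1.49-fold for Cma1, 0.359-fold to 1.73-fold for Tpsb2 and 0.43-fold to 2.30-fold for Tpsab1. With afatinib they were 0.549-fold to 6.37-fold for Cpa3, 0.751-fold to 3.16-fold for Cma1, 0.3985-fold to 1.92-fold for Tpsb2 and 0.578-fold to 3.09-fold for Tpsab1. Those of Cpa3, Cma1 and Tpsab1 include the 2.79-fold rise of Kit with afatinib, so a rise of that size is not excluded for them.

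With library size as the only scaling the median of all tested genes moved up by 0.683 with gefitinib and 0.615 with afatinib. There Cma1, Tpsb2, Tpsab1 and Ms4a2 turned positive with gefitinib (0.21, 0.34, 0.65 and 0.22), which is −0.52, −0.38, −0.08 and −0.50 relative to that median, and none passed. Kit and Hdc passed there too, at 2.45 and 2.82 relative to the median with gefitinib and at 1.44 and 3.24 with afatinib.

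The high-affinity IgE receptor consists of an IgE-binding alpha chain, encoded by Fcer1a, a beta chain that amplifies the signal, encoded by Ms4a2, and a gamma chain shared with other Fc receptors, encoded by Fcer1g. Ms4a2 (ENSRNOG00000020993, chromosome 1, 227957302 to 227965386) had 2.63 and 2.27 CPM in untreated skin, 1.53 and 2.06 with gefitinib and 3.96 and 3.78 with afatinib. Both gefitinib libraries were below and both afatinib libraries above the untreated pair, but neither difference passed (log2 fold changes −0.45 ± 0.442 and 0.66 ± 0.438, edgeR adjusted p = 0.483 and 0.415). Fcer1a (ENSRNOG00000009177, chromosome 13, 91730925 to 91737053) had 0 and 10 counts in the untreated libraries, 22 and 14 with gefitinib and 50 and 27 with afatinib. All 4 rash libraries held more than either untreated library. Its log2 fold change was 1.27 ± 1.17 with gefitinib (edgeR adjusted p = 0.453) and 2.78 ± 1.17 with afatinib (0.22), with intervals of 0.36-fold to 16.2-fold and 1.03-fold to 45.9-fold. Fcer1g, which macrophages and other myeloid cells also express, had 13.8 and 9.78 CPM in untreated skin, 16.3 and 14.0 with gefitinib and 28.3 and 18.9 with afatinib, and did not pass (adjusted p = 0.428 and 0.127).

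**Figure D2:**
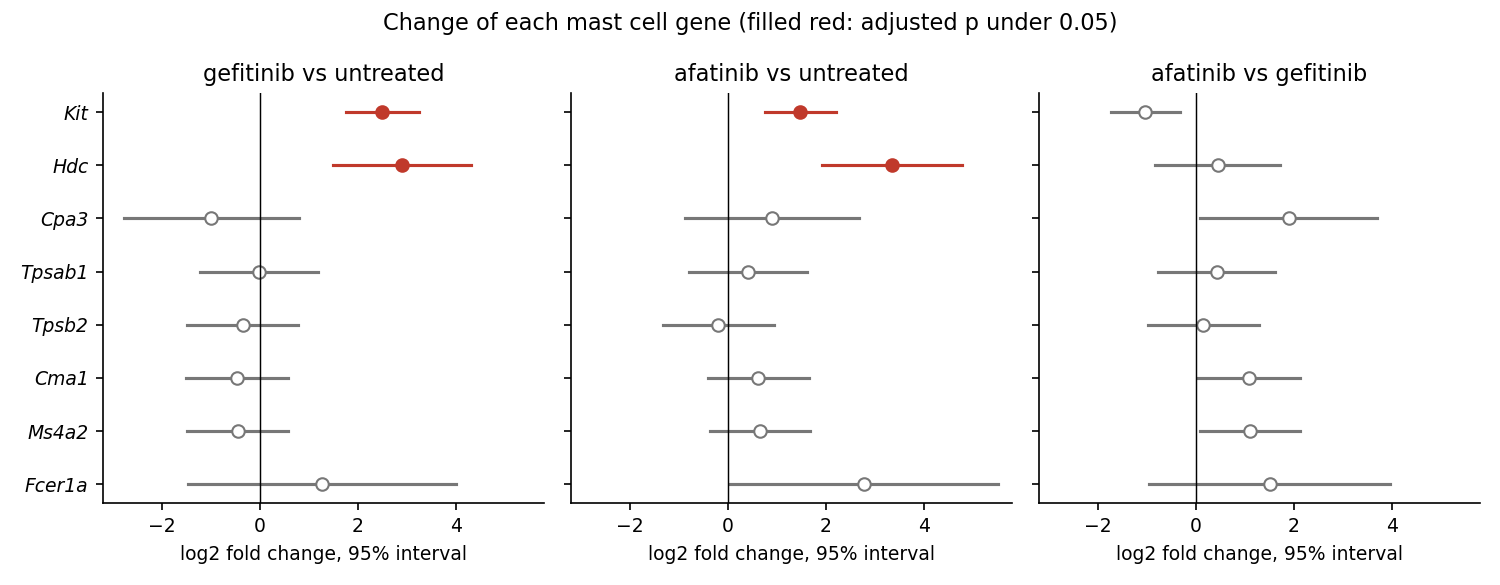
Log2 fold change of each mast cell gene with its approximate 95% interval, derived from edgeR's quasi-likelihood fit, in 3 comparisons. Filled red points passed at an adjusted p under 0.05. Kit and Hdc passed against untreated skin with each inhibitor, at 2.51 and 2.91 for gefitinib and 1.48 and 3.36 for afatinib, and no gene passed between the inhibitors.

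By range, 3 of the 8 genes had both gefitinib libraries above both untreated ones (Kit, Hdc and Fcer1a) and 3 had them below (Cpa3, Tpsb2 and Ms4a2), where 38.8% and 33.9% of all tested genes did so. With afatinib 4 were above (Kit, Hdc, Ms4a2 and Fcer1a) and 0 below, where the shares over all tested genes were 31.5% and 21.8%. Taking all 4 rash libraries together, 3 were above both untreated ones (Kit, Hdc and Fcer1a) and 0 below, where the shares were 27.2% and 18.8%. With 2 libraries per group such separation was common across the table.

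Levels of different genes were compared per gene length, in the authors' deposited FPKM. In untreated skin Cma1 was highest at 17.4 ± 8.26 FPKM (mean ± SD, n = 2), followed by Cpa3 at 4.70 ± 0.443, Tpsb2 at 3.91 ± 0.235, Tpsab1 at 1.92 ± 1.03, Kit at 1.64 ± 0.149, Hdc at 1.05 ± 0.945, Ms4a2 at 0.925 ± 0.0926 and Fcer1a at 0.302 ± 0.427. Tpsab1, Kit, Hdc and Ms4a2 overlapped with their neighbours in this order. In gefitinib skin Cma1 was still first at 12.4 ± 0.553 FPKM, and Kit at 9.14 ± 2.26 and Hdc at 7.81 ± 2.18, which overlapped, now came ahead of Tpsb2 at 2.99 ± 0.292 and Cpa3 at 2.31 ± 0.359. In afatinib skin Cma1 at 25.7 ± 13.0 FPKM was followed by Hdc at 10.4 ± 0.136, Cpa3 at 8.51 (2.14 and 14.9 in its libraries) and Kit at 4.34 ± 1.158, and every gene from Hdc down overlapped with the next in the order.

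Ratios within a library do not depend on the scaling between libraries. The counts of the 4 granule protease genes summed to 372 and 655 in the untreated libraries, 584 and 505 with gefitinib and 1059 and 697 with afatinib. For each of these counts there were 0.312 and 0.238 Kit counts in untreated skin, 1.78 and 2.57 with gefitinib, and 0.276 and 1.07 with afatinib. The gefitinib pair and afatinib replicate 2 were above the untreated pair, while afatinib replicate 1 lay between the untreated values. Hdc counts per protease count were 0.035 and 0.105 in untreated skin, 0.664 and 1.00 with gefitinib and 0.368 and 0.956 with afatinib, higher in all 4 rash libraries. Ms4a2 per protease count was 0.102 and 0.0595, 0.0668 and 0.0931, and 0.0576 and 0.141, with the groups overlapping. Kit and Hdc did not keep 1 ratio to each other: Hdc counts per Kit count were 0.374 and 0.391 with gefitinib and 1.34 and 0.895 with afatinib, beside 0.112 and 0.442 in untreated skin. Afatinib replicate 1 is the library with the most skeletal muscle of the rash libraries and the highest Cpa3, Cma1, Tpsb2 and Fcer1a of all 6; whether these are linked was not tested.

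**Figure D3:**
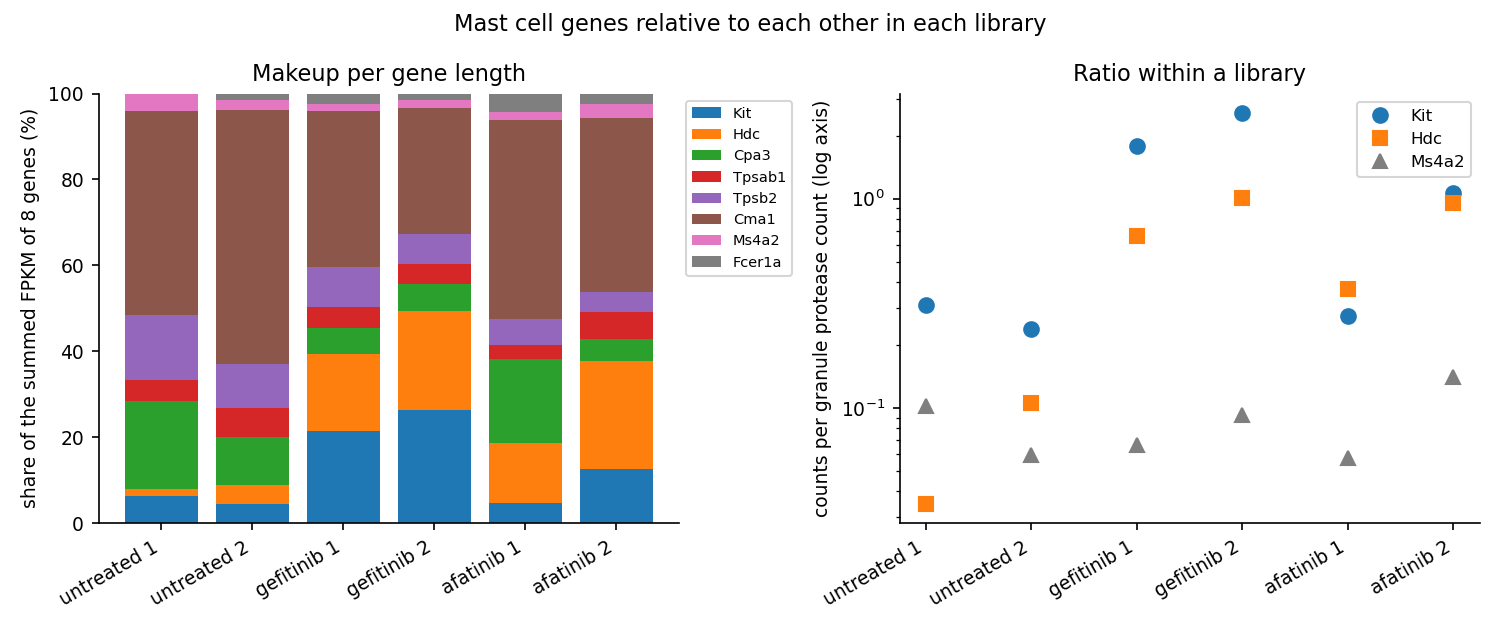
Left, share of each gene in the summed deposited FPKM of the 8 mast cell genes, 1 bar per library; right, counts of Kit, Hdc and Ms4a2 per count of the 4 granule proteases (Cpa3, Tpsab1, Tpsb2, Cma1) on a log axis. Hdc took 1.57% and 4.38% of the summed FPKM in untreated skin and 13.9% to 25.1% in rash skin, and Kit took 4.67% in afatinib replicate 1, within its untreated range of 4.45% to 6.29%.

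The sequences just upstream of Kit and Hdc, the genes that rose, are shown beside those of Cpa3 and Cma1, proteases that did not pass. Each is the 250 bases before the annotated start in RefSeq's GRCr8 assembly, read 5′ to 3′ along the gene's strand, at chr14:32978813-32979062 for Kit, chr3:134318705-134318954 for Hdc, chr2:104673238-104673487 for Cpa3 and chr15:33390134-33390383 for Cma1, all on the minus strand. Capitals mark GATAA or its reverse complement TTATC, a core of the site bound by GATA factors, among them GATA2 of mast cells.
Kit: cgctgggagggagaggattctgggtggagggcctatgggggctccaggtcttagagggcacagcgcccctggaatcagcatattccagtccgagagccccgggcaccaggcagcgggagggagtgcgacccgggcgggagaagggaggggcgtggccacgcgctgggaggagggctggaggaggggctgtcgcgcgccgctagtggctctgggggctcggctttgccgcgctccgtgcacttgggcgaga
Hdc: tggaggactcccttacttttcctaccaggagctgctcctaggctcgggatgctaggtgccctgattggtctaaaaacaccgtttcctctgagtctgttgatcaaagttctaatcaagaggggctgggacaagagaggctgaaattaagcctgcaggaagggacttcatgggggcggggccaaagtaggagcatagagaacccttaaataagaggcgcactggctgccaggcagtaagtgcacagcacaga
Cpa3: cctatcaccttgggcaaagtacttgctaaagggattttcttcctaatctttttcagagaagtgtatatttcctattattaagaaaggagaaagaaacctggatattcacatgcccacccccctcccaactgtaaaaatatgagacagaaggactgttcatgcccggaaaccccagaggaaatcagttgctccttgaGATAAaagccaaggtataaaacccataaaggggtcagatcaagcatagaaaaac
Cma1: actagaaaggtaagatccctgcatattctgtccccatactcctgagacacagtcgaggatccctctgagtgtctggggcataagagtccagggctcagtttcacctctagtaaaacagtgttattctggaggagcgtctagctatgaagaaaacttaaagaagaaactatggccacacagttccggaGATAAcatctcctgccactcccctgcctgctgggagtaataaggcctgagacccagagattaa

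A promoter entry was found for 7 of the 8 genes, all but Ms4a2. GATAA on either strand occurred in 4 of the 7, once in Cpa3 (from 54 bases before the start), once in Cma1 (63), once in Fcer1a (93) and at 180 and 29 bases in Tpsab1. The windows of Kit, Hdc and Tpsb2 held none. Of all 33469 promoter windows of this length 23.5% held GATAA. The E-box CANNTG, the general site of helix-loop-helix factors, occurred in 65.5% of all windows and in those of Kit (1 match), Cpa3 (3), Tpsab1 (1), Tpsb2 (2) and Fcer1a (3). Of its forms bound by MITF, a regulator of mast cells and melanocytes, CATGTG (either strand) was found once each in Cpa3, Tpsb2 and Fcer1a (12.1% of all windows) and CACGTG in none of the 7 (5.59%). The window of Kit held 70.8% G and C and that of Cpa3 40.8%. These matches are descriptions of letters only.

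Other genes of mast cells were read from lists. As background to the list counts below, 12.3% of all tested genes were called higher and 5.45% lower with gefitinib. With afatinib these shares were 3.60% and 0.372%. The share of all tested genes at an unadjusted p under 0.05 was not counted. Of 17 further granule protease genes 10 were found by symbol and 1 was tested. That gene, Mcpt1l1, a relative of the mast cell chymases next to Cma1 (chromosome 15, 34609776 to 34612432), had 24.5 and 52.0 CPM in untreated skin, 26.2 and 17.8 with gefitinib and 55.95 and 30.5 with afatinib. It did not pass (log2 fold changes −0.80 ± 0.446 and 0.17 ± 0.443, edgeR adjusted p = 0.23 and 0.844). Mcpt2, a protease of mucosal mast cells, had 1 count in 1 of the 6 libraries, and Mcpt4 had 4 counts, all in afatinib replicate 1. A count of 0 allows 0.116 to 0.207 CPM, depending on the library.

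Of 25 other genes used as mast cell markers 23 were found and 19 tested, of which 2 rose and 0 fell with gefitinib and 0 changed with afatinib in edgeR's test (4 at an unadjusted p under 0.05). With gefitinib 12.3% of all tested genes were called higher, so 2 of 19 is near that share. The list median was −0.64 with gefitinib and 0.27 with afatinib. Slc18a2, the transporter that loads histamine and serotonin into granules, went from 5.46 and 4.66 CPM to 12.3 and 12.3 with gefitinib (log2 fold change 1.28 ± 0.317, edgeR adjusted p = 0.0361) and stood at 8.25 and 10.03 with afatinib (0.174). All 4 rash libraries were above the untreated pair, as they were for 27.2% of all tested genes. Its gefitinib call was lost with the replicate number as a block (adjusted p = 0.0573) and without any 1 of the untreated or gefitinib libraries (0.132 to 0.19). Cyp11a1, the enzyme of the first step of steroid synthesis, went from 0.761 and 0.873 to 10.9 and 11.3 CPM with gefitinib (3.76 ± 0.63, edgeR adjusted p = 0.015), with 2.79 and 9.02 CPM with afatinib (0.0518; 0.032 with library size only). Its gefitinib call was lost without untreated replicate 1 (0.102) or 2 (0.104) or gefitinib replicate 2 (0.056). Gata2, a transcription factor of mast cells, had 13.8 and 12.3, 9.76 and 3.895, and 13.2 and 11.4 CPM in the order untreated, gefitinib and afatinib, and Mitf 23.2 and 28.9, 14.5 and 19.1, and 19.1 and 13.5. Neither passed.

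Histamine needs removal and receptors as well as synthesis. Of 8 genes of histamine breakdown, transport and reception, all found, 3 were tested and 0 passed with either inhibitor (edgeR; 0 at an unadjusted p under 0.05). The H1 receptor gene Hrh1 had 1.52 and 1.75 CPM in untreated skin, 1.02 and 0.306 with gefitinib and 0.78 and 0.694 with afatinib. The rash libraries were all below the untreated pair, as they were for 18.8% of all tested genes (edgeR adjusted p = 0.22 and 0.381). Hnmt and Aoc1, the histamine-degrading enzymes, are listed at 0 counts in all 6 libraries. Such a row cannot tell absent RNA from reads that were not assigned to it, so absence from skin is not shown.

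Downstream of the IgE receptor, 0 of 19 signalling genes rose and 2 fell with gefitinib, and with afatinib 0 passed (edgeR; 6 at an unadjusted p under 0.05). Over all tested genes 12.3% were called higher and 5.45% lower with gefitinib. The list median was −0.42 and 0.45. Gab2, an adaptor used by both the IgE receptor and KIT, fell from 5.88 and 4.66 to 0.98 and 1.18 CPM with gefitinib (log2 fold change −2.28 ± 0.437, edgeR adjusted p = 0.019) and stood at 3.44 and 3.16 CPM with afatinib (0.381). Stim1, the calcium sensor of store-operated entry, fell from 186 and 259 to 74.8 and 87.3 CPM with gefitinib (−1.46 ± 0.361, adjusted p = 0.0362; 0.0581 with the replicate number as a block). Its channel partner Orai1 fell only for the mean of both inhibitors (−1.66 ± 0.427, adjusted p = 0.0413), from 113 and 112 CPM to between 17.9 and 61.4. With library size only, Gab2 (−1.60, adjusted p = 0.0767) and Stim1 (−0.79, 0.12) did not pass, and Orai1 passed narrowly (−1.10, 0.0499). Leaving out any 1 untreated or gefitinib library ended the calls of Gab2 (adjusted p = 0.0898 to 0.11), Stim1 (0.11 to 0.192) and Orai1 (0.0828 to 0.197), and limma-voom that of Orai1 (0.0509). Stim1 and Orai1 are also genes of skeletal muscle, whose summed markers are given above. Of the 13 muscle genes 0 passed, but all had negative log2 fold changes with each inhibitor. In afatinib replicates 1 and 2 Stim1 had 145 and 83.0 CPM and Orai1 61.4 and 17.9. The muscle markers summed to 164300 and 36680 CPM in those libraries. The part of muscle in these values was not tested.

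Downstream of KIT, 1 of 16 signalling genes rose and 2 fell with gefitinib, with a median of 0.06, and with afatinib 0 passed (edgeR; 3 at an unadjusted p under 0.05; median 0.10). The gefitinib shares over all tested genes were 12.3% higher and 5.45% lower. Src, a kinase that KIT activates, rose from 17.2 and 19.3 to 49.5 and 38.0 CPM with gefitinib (log2 fold change 1.26 ± 0.299, edgeR adjusted p = 0.032). Sh2b3, an adaptor that restrains KIT signals, fell from 48.6 and 44.5 to 23.3 and 17.6 CPM (−1.19 ± 0.256, adjusted p = 0.0253), and Stat5b, a transcription factor that KIT signals activate, fell from 97.9 and 186 to 38.7 and 34.1 CPM (−1.96 ± 0.467, adjusted p = 0.0324). In the afatinib libraries Src had 27.8 and 44.2 CPM, Sh2b3 31.2 and 24.9, and Stat5b 88.8 and 39.1. These are values of whole skin, and which cells they came from was not tested. With library size only Sh2b3 (−0.48, adjusted p = 0.351) and Stat5b (−1.29, 0.0599) did not pass. Leaving out any 1 untreated or gefitinib library also ended the calls of Src (adjusted p = 0.0987 to 0.164), Sh2b3 (0.0716 to 0.15) and Stat5b (0.0919 to 0.175).

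Among 16 ligands and cytokines that act on mast cells, all found, 8 were tested, and 0 rose and 1 fell with gefitinib and 0 passed with afatinib (edgeR; 1 at an unadjusted p under 0.05). The chemokine gene Cxcl12 fell from 145 and 110 to 63.4 and 33.6 CPM with gefitinib (log2 fold change −1.39 ± 0.37, edgeR adjusted p = 0.0429; −0.67 and 0.25 with library size only). Its call was lost without any 1 untreated or gefitinib library (adjusted p = 0.061 to 0.211). Il33, an alarm cytokine that activates mast cells, had 89.6 and 81.4 CPM in untreated skin, 47.4 and 16.6 with gefitinib and 78.6 and 43.4 with afatinib, and did not pass (0.0893 and 0.595). Il6 had 0 counts in both untreated libraries, 40 and 6 with gefitinib and 14 and 48 with afatinib. For the mean of both inhibitors it was at least 6.01-fold higher against a floor of 3 counts per untreated library (edgeR adjusted p = 0.0419). That call was lost with the replicate number as a block (0.0627), without untreated replicate 1 (0.163) or 2 (0.196), without gefitinib replicate 1 (0.0762) and without afatinib replicate 2 (0.0671). Il3, Il9 and Il4, growth factors of mast cells, had at most 3 counts in any library.

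**Figure D4:**
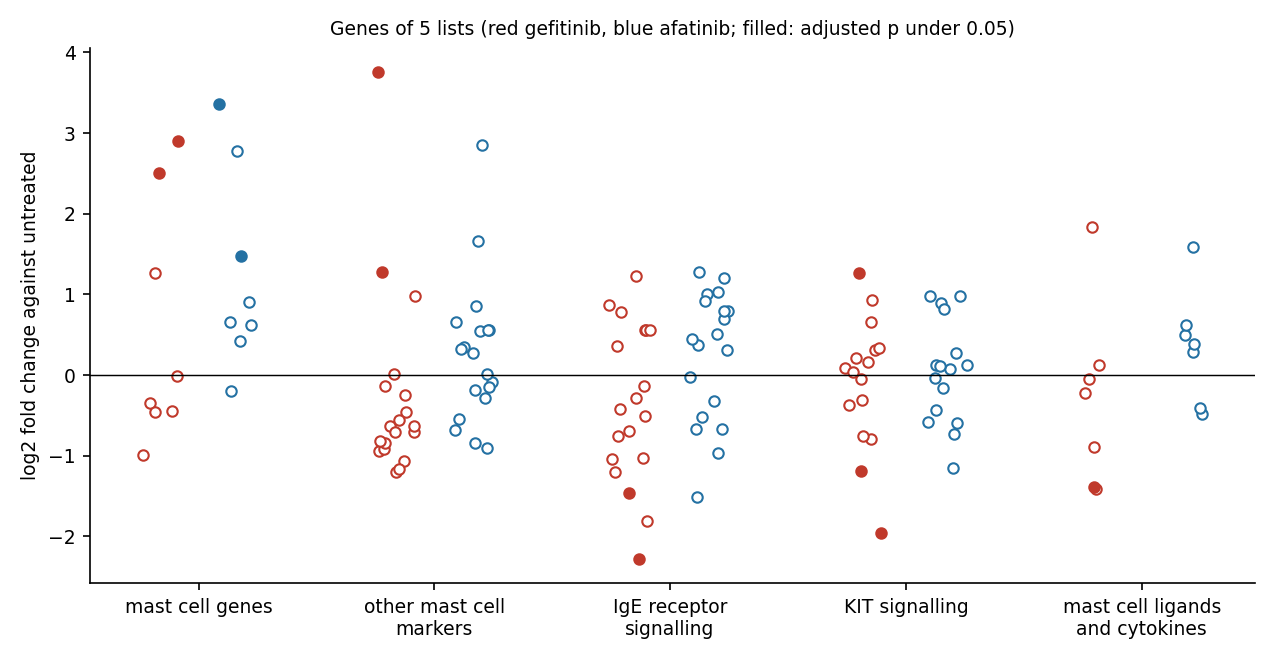
Log2 fold change against untreated skin of each tested gene in 5 lists (red, gefitinib; blue, afatinib; filled, edgeR adjusted p under 0.05); points are spread sideways at random, and Il6, with 0 counts in untreated skin, is left out. Kit and Hdc are the filled points of the mast cell genes, and in the other 4 lists no gene passed with afatinib.

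Cells other than mast cells can supply Kit and Hdc. Of 10 melanocyte markers 9 were found and tested; 1, the channel gene Trpm1, rose with gefitinib and 0 passed with afatinib (edgeR; 1 at an unadjusted p under 0.05). Trpm1 had 2.005 and 5.82 CPM in untreated skin, 29.6 and 35.5 with gefitinib (log2 fold change 3.05 ± 0.551, edgeR adjusted p = 0.0168) and 13.3 and 26.3 with afatinib (0.0596; 0.0336 with library size only), and so had the same order of group means as Kit. Its gefitinib call was lost without untreated replicate 1 (0.0919) or 2 (0.0809) or gefitinib replicate 2 (0.0691). The pigment genes differed within each rash pair: Tyr, which encodes tyrosinase, had 1.25 and 3.20 CPM in untreated skin, 0.196 and 30.1 with gefitinib, and 10.3 CPM and 0 counts with afatinib. In gefitinib replicate 1 and afatinib replicate 2, where Tyr and Tyrp1 were below the untreated pair, Kit was at 40.7 and 28.7 CPM. In gefitinib replicate 2 and afatinib replicate 1, where both were above that pair, Kit was at 56.7 and 19.0 CPM. Summed over the 9 genes, melanocyte markers ran from 24.6 to 36.6 CPM in untreated skin, 40.1 to 212 with gefitinib and 40.3 to 100 with afatinib. Trpm1 made up most of this sum in gefitinib replicate 1 (29.6 of 40.1 CPM) and afatinib replicate 2 (26.3 of 40.3). Sox10 went the other way, from 8.71 and 6.81 CPM to 2.195 and 4.68 with gefitinib and 4.94 and 2.51 with afatinib. It did not pass (edgeR adjusted p = 0.151 and 0.29). The part of melanocytes in the rise of Kit, and that of hair follicle tissue, was not tested.

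**Figure D5:**
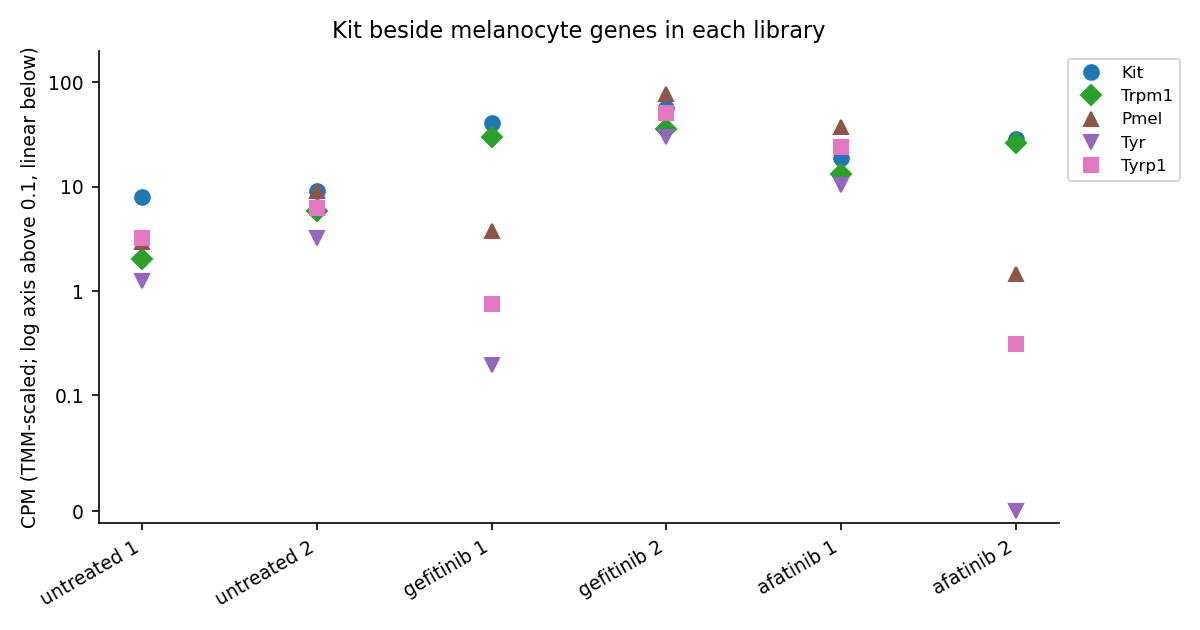
CPM of Kit and 4 melanocyte genes in each library, on an axis that is logarithmic above 0.1 and linear below. Kit and Trpm1 were higher in all 4 rash libraries than in the untreated pair, whereas Pmel, Tyr and Tyrp1 were high in gefitinib replicate 2 and afatinib replicate 1 and low in the other rash libraries.

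Neutrophil markers were higher in rash skin: of 11 genes found 7 were tested and 5 called higher with each inhibitor. These were S100a8, S100a9, Mmp8, Mmp9 and Csf3r, and the first 2 are also made by stressed keratinocytes. The summed level was 8.02 and 6.98 CPM in untreated skin, 724 and 1286 with gefitinib and 1955 and 1739 with afatinib. Nearly all of the rash sums came from S100a8 and S100a9, so they do not measure neutrophils alone. S100a8 had 375 and 646 CPM with gefitinib and 993 and 949 with afatinib, and S100a9 had 333 and 619, and 915.5 and 713. Csf3r, the receptor of the neutrophil growth factor, had 0.484 and 0.698 CPM, 4.82 and 3.895, and 7.93 and 17.1 CPM in the same order. The other tested genes did not pass: Mpo, the myeloperoxidase gene of neutrophil granules, had 0 and 0.175 CPM, 1.06 and 0.394, and 0.78 and 2.31 (adjusted p = 0.129 and 0.108), and the chemokine receptor gene Cxcr2 0.138 and 0, 0.392 and 0.394, and 0.78 and 2.39 (0.181 and 0.0761). The 4 untested genes, the granule genes Elane, Ltf, Ngp and Camp, did not exceed 0.231 CPM in any library. Of 7 basophil markers 5 were found, 3 were tested and 0 passed with either inhibitor (edgeR; 0 at an unadjusted p under 0.05), with a summed level of 30.0 and 37.6 CPM, 41.0 and 14.8, and 30.8 and 47.0. The tested genes were Il3ra, Csf2rb and Itga2, while Mcpt8 and Cd200r3 were not found by symbol and could not be read. Most of the basophil sum came from Il3ra and Csf2rb in each library, with 10.6 and 17.2 CPM in untreated replicate 1. Whether these reads came from basophils was not tested. Prss34, a basophil protease, had 0 counts in the untreated and gefitinib libraries and 1 count in each afatinib library. Macrophage and dendritic cell markers had 0 of 12 higher and 1 lower with gefitinib (Cd74, an invariant chain of antigen presentation) and 0 with afatinib (edgeR; 1 at an unadjusted p under 0.05), and of 6 eosinophil markers 3 were tested and 0 passed with either (1 and 0 at an unadjusted p under 0.05). The part of neutrophils and keratinocytes in the rise of Hdc was not tested.

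Each member was set beside the genes with the most similar profile over the 6 libraries, measured as the root mean square difference between centred log2 CPM profiles among 12440 named genes with a mean of at least 1 CPM. Nearest to Kit were S1pr5, a sphingosine phosphate receptor (0.0888), Npw (0.112) and Pcgf6, a Polycomb gene (0.117). S1pr5 had 1.73 and 1.86 CPM in untreated skin, 9.21 and 12.7 with gefitinib and 4.81 and 6.98 with afatinib. Nearest to Hdc were Sh2d5 (0.246), Hal, the gene of histidine ammonia-lyase, which like histidine decarboxylase consumes histidine (0.344), and the kallikrein gene Klk13 (0.36). Hal had 0.207 and 0.524 CPM in untreated skin, 2.94 and 3.50 with gefitinib and 5.98 and 4.82 with afatinib. For Cma1 they were Lgi2 (0.225), the chymase relative Mcpt1l1 (0.226) and Akap7 (0.24), and for Cpa3 Eid2 (0.355), Spata24 (0.358) and Stard6 (0.383). Nearest to Tpsb2 were Inpp5a (0.0812), Mbd3 (0.0997) and RT1-CE5 (0.109), and to Tpsab1 Cmtr2 (0.121), Pex11g (0.124) and Snx10 (0.129). Near Ms4a2 were Zfp382 (0.16) and Trim21 (0.173), and nearest to Fcer1a, whose low counts make its profile coarse, were the chemokine gene Cxcl13 (0.479), Cd8a (0.535) and Degs2 (0.696). Among the 8 genes themselves the closest pair was Tpsab1 and Cma1 (0.434), and Kit and Hdc differed by 1.08.

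Afatinib against gefitinib gave 0 of 8 genes past edgeR's test, with 0% of all tested genes called, 4 of the 8 at an unadjusted p under 0.05, and 0 by DESeq2 or limma-voom. The share of all tested genes at that unadjusted p was not counted. Kit was lower with afatinib by ranges that did not overlap (log2 fold change −1.03 ± 0.3; 0.301-fold to 0.798-fold; adjusted p = 0.787). Ms4a2 (1.11 ± 0.438; 1.06-fold to 4.398-fold), Cma1 (1.08 ± 0.444; 1.03-fold to 4.36-fold) and Cpa3 (1.89 ± 0.774; 1.06-fold to 13.1-fold) were higher with an adjusted p of 0.787 each, and the Cpa3 value was −0.05 without afatinib replicate 1. Hdc stood at 0.45 ± 0.544 (0.564-fold to 3.30-fold; 0.851), Tpsab1 at 0.43, Tpsb2 at 0.15 and Fcer1a at 1.51. In range terms 5 of the 8 had both afatinib libraries above both gefitinib libraries and 1 had them below, where 17.1% and 19.9% of all tested genes did so. The doses of the inhibitors differed, so these values do not compare the compounds at a matched dose.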

How the data were processed

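Messenger RNA of rat back skin was sequenced in 6 libraries, 2 per group. The values deposited are whole, unscaled read counts; per the submitters' processing notes, the tools included featureCounts (1.5.0-p3), HISAT2 (2.0.5) and, with no role given, DESeq2 (1.16.1). Neither build nor annotation nor strand setting is named. FPKM values, which the authors deposited separately, are scaled by gene length and library. They served to compare levels between genes and to give each gene's share of the members' summed FPKM in each library.

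Rows were matched by symbol, with no symbol repeated. From 34225 loci, filterByExpr kept 16398, which were TMM-scaled and fitted with edgeR 4.0.16 (R 4.3.3) in a quasi-likelihood model over all 6 libraries, with 1 term per group, 3 residual degrees of freedom, two-sided p and Benjamini-Hochberg adjustment over all loci tested (threshold 0.05). The fitting code was also run on simulated counts, with a set of genes changed in the gefitinib libraries only. Apart from these the simulated libraries differed only in size, so the run did not check the scaling. Of 200 listed genes 187 were found. Alternatives were RLE scaling, library size only, DESeq2 1.42.0, limma-voom (limma 3.58.1), no filter, a replicate block and each library left out. All 8 members are named; other genes are those past the test or, below 4, of smallest p in each list, plus the 3 nearest in pattern to each member among genes with a mean of at least 1 CPM (1 of them, near Ms4a2, is not reported here). Members and lists were chosen with earlier results of these data known. Some genes of the cell marker lists and Fcer1g, Kitlg, Gata2, Mitf and the proteases near 0 were named outside this rule, after their values were seen. Standard errors were derived as the absolute log2 fold change divided by the square root of edgeR's F statistic. Intervals of fold changes use that error and a t quantile, an approximation that includes the spread between libraries. Floors of 3 counts cover counting error only.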

Additional observations from a re-analysis of the deposited data

Results flagged for a closer look

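For 3 of the genes reported here every gefitinib library lay below and every afatinib library above both untreated libraries. Of all tested genes 33.9% had both gefitinib libraries below the untreated pair, and 31.5% had both afatinib libraries above it. The share with both at once was not counted, so this number of genes cannot be set against a background. The genes are Ms4a2 of the IgE receptor (log2 difference of afatinib against gefitinib 1.11), Lat2, an adaptor of IgE receptor signalling (1.39), and Trim21 (0.95), which was picked for its likeness to Ms4a2. Lat2 had 1.31 and 0.756 CPM in untreated skin, 0.745 and 0.525 with gefitinib and 2.01 and 1.35 with afatinib. None passed between the inhibitors (edgeR adjusted p = 0.787 each).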

How the results depend on the processing

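Of the 8 genes, 2 were called against untreated skin with gefitinib under every scaling and model tried, and 2 for the mean of both inhibitors; between the inhibitors 0 were called throughout. With afatinib the count was 1 under RLE scaling, 0 under limma-voom and 1 with the replicate number as a block (Kit lost at an adjusted p of 0.0504). Same-numbered libraries did not vary together (correlations of 0.0331, 0.0374 and −0.174), so the numbers were not taken to pair them; the block changed no other call among the 8. Leaving out 1 library gave 0 to 3 called genes with gefitinib, 0 to 2 with afatinib and 0 to 3 for the mean of both. The 0 came without either untreated library and, with afatinib, also without either gefitinib library or afatinib replicate 2; fewer libraries then entered the fit. The 3 came without afatinib replicate 2 (gefitinib) or replicate 1 (mean), each adding Cpa3 as lower.

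The following values, none past the test in the comparison given, changed sign; beyond the smaller or differently scaled data, the cause was not tested. With library size only, Tpsab1, Tpsb2, Cma1 and Ms4a2 had 0.65, 0.34, 0.21 and 0.22 with gefitinib, Tpsb2 0.30 and Cxcl12 0.17 with afatinib, and Tpsb2 −0.047 between the inhibitors. Tpsab1 with gefitinib was 0.065 under limma-voom, 0.0062 without a filter and 0.064 with the replicate block, and Tpsb2 between the inhibitors was −0.047 under limma-voom. Over the fits that leave out 1 library, the gefitinib values ran from −0.46 to 0.68 for Tpsab1, −0.87 to 0.13 for Cma1 and −0.11 to 0.28 for Kitlg. The afatinib values ran from −1.04 to 1.66 for Cpa3, −0.041 to 1.10 for Tpsab1, −0.93 to 0.25 for Tpsb2, −0.079 to 0.88 for Kitlg and −0.34 to 0.82 for Mcpt1l1. Between the inhibitors they ran from −0.053 to 2.71 for Cpa3 and −0.58 to 0.66 for Tpsb2. Fcer1a rested on 0 to 50 counts per library.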
